A study of Mus musculus with 217 samples.

Results

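Immediate early genes are transcribed within minutes of a rise in calcium or cyclic AMP in a neuron, without new protein synthesis, when kinases activate factors such as CREB and SRF that already sit at their promoters. In striatal spiny projection neurons they respond to glutamate and dopamine input, in cortical neurons to synaptic activity, and their basal mRNA is widely used as a readout of recent neuronal activity. The 10 genes described here, of 54532 genes in the count tables, were taken by symbol: Fos, Fosb and Junb (subunits of the AP-1 transcription factor), Egr1, Egr2, Egr3 and Egr4 (zinc finger transcription factors), Npas4 (a transcription factor induced by calcium in neurons), Nr4a1 (an orphan nuclear receptor) and Arc (a protein of the postsynapse that acts in endocytosis of AMPA receptors). Each symbol matched 1 identifier and each gene passed the count minimum in every tissue and age, so that all 10 were tested throughout.

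RNA-Seq was carried out on the striatum and cortex of C57BL/6 mice at 6 and 12 months of age, 217 libraries from 110 mice, of which 107 gave both tissues. The LacQ140 allele is a knocked-in Htt allele with an expanded CAG repeat and lac operators at its promoter, carried on 1 chromosome, and the compared questions were what mutant huntingtin, its lowering, and the inducer alone did to gene expression. The animals fall into 6 groups, and all of them, the WT mice included, carry a lac repressor transgene driven by the beta-actin promoter (Hdh(LacO-+/+):beta-actin-LacIR tg in WT, Hdh(LacO-140Q/+):beta-actin-LacIR tg in the others), so that lowering was body-wide and not restricted to neurons. WT mice received no IPTG, and WT + IPTG mice received IPTG from embryonic life until collection. LacQ140 mice received IPTG in the same way and expressed the mutant allele, LacQ140_A mice never received it and had the allele repressed from conception, and LacQ140_2M and LacQ140_8M mice had it withdrawn at 2 and 8 months, the last group being collected at 12 months only. The mice of the lowering groups were therefore off IPTG at collection, as were WT mice, while LacQ140 and WT + IPTG mice were on it.

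Each group held 10 mice, 5 females (F1 to F5) and 5 males (M1 to M5), except that the 12-month striatum of WT, LacQ140 and LacQ140_8M held 9. Library totals lay between 33292014 and 68038785 counts, and the labelled sex matched in all libraries. Levels are counts scaled to library size with TMM factors (CPM), and differences are log2 fold changes with their standard error (SE). A gene was called where the adjusted p of edgeR was under 0.05 and the change at least 20%. Shares of all genes given beside the members run over every gene with at least 1 count in the libraries fitted. Fewer genes reached a mean of 1 CPM, 14585 of 35386 in the 12-month striatum, and the 10 members were among them. Shares over such well-counted genes can be higher and were not computed. The 6- and 12-month libraries were deposited as separate tables and batches, so no test was made between the ages. Mice were housed by sex, genotype and treatment, and a cage cannot be told apart from a group and sex. In bulk tissue, fewer cells of a type and less RNA per cell cannot be told apart either. Striatal libraries held Drd1, a receptor of spiny neurons, at 142 to 257 CPM as group means, against 9.16 to 15.3 CPM in cortex, where Neurod6 of excitatory neurons stood at 51.4 to 66.3 CPM against 0.451 to 2.05 CPM in striatum. The 12-month cortex libraries stood apart from the other 3 sets in composition: the slope of log2 CPM on log2 transcript length was -0.122 to -0.02 as group means there, against 0.38 to 0.542 elsewhere.

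The promoters of these genes are shown because most members moved together from mouse to mouse, as described further on, and because CREB, the factor most tied to their induction by calcium and cyclic AMP, binds the 5 letters TGACG. The 250 bases before the start site were read from RefSeq windows (GRCm38.p6) for 4 members whose windows overlap no annotated exon, 5′ to 3′ on the strand of the gene, with every TGACG on either strand (CGTCA on the other) in capitals. They are Fos (chr12:85473640-85473889, plus strand), Junb (chr8:84978749-84978998, minus strand), Egr4 (chr6:85513590-85513839, minus strand) and Nr4a1 (chr15:101266596-101266845, plus strand, inside the annotated gene).
Fos: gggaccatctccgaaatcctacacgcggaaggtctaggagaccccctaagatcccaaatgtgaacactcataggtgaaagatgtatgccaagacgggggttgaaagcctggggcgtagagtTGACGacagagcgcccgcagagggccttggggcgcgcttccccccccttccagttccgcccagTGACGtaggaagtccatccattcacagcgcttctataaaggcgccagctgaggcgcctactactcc
Junb: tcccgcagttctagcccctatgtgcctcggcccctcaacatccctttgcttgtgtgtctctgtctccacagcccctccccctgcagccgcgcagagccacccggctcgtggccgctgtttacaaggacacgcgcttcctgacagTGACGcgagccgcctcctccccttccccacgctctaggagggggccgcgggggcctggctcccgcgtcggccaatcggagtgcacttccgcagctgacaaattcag
Egr4: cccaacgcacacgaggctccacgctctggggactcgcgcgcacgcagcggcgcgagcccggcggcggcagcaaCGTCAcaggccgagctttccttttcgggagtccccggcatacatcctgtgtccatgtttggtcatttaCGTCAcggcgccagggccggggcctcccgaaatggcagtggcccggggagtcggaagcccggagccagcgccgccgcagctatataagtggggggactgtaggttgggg
Nr4a1: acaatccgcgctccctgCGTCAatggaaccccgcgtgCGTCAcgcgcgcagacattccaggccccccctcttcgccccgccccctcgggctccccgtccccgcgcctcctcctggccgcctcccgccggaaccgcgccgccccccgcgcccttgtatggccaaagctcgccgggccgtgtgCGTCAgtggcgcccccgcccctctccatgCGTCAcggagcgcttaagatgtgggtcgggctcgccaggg
The Fos window holds the letters at 129 and 66 bases before the start site, Egr4 at 109 and 177, Junb at 106, and Nr4a1 holds 4 copies, at 40, 69, 213 and 233 bases. The table had windows for 7 members (none was used for Egr1, Egr3 and Arc), and all 7, Fosb, Egr2 and Npas4 being the others, held TGACG in at least 1 window, against 17.8% of 32851 promoter windows and 19.8% of 27025 genes. The complete palindrome TGACGTCA was in 0 of the 7, against 1.55% of windows. A CArG box, the site of SRF, was found for Egr2 and for no other of the 7, against 1.47% of windows, and the EGR site GCGTGGGCG in 0, against 0.536%. Egr2 had several windows, and bases outside the windows and the promoters of Egr1, Egr3 and Arc were not searched. These matches are letters in a window and not measured binding.

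In WT mice Arc stood first among the 10 in every tissue and age when levels were set per kilobase of the longest transcript, and Fosb last. In the 6-month striatum the order was Arc (90.3 CPM per kb ± 29.5, SD, n = 10), Egr1 (77.0), Nr4a1 (74.4), Junb (55.4), Egr3 (33.5), Egr4 (16.0), Fos (12.6), Egr2 (9.59), Npas4 (7.7) and Fosb (4.42). In the 6-month cortex Arc reached 159 CPM per kb ± 53.4 (SD, n = 10) and Fosb 3.37. Neighbours in these orders mostly overlapped. The ranges over WT mice stood apart between Arc and Egr1 and between Fos and Egr4 in the 6-month cortex, and between Egr3 and Egr4 in the 12-month striatum. Taken mouse by mouse, Junb was also above Egr3 and Egr3 above Egr4 in every WT mouse of the 6-month striatum, Egr1 above Junb and Egr4 above Fos in the 12-month striatum, and Egr1 above Egr3, Egr3 above Fos and Egr4 above Egr2 in the 12-month cortex. Between tissues of the same WT mice at 6 months, 8 members were called, against a background of 31.4% of 33399 genes. Fos and Arc were lower in striatum, by log2 fold changes of -1.11 and -0.88. Egr4 (1.0), Egr2 (0.95), Nr4a1 (0.38), Egr1 (0.36), Fosb (0.35) and Npas4 (0.27) were higher there, while Egr3 (0.23) and Junb (0.39) were not called. At 12 months 8 members were higher in striatum, against 51.1% of genes called and 25.0% called higher, led by Egr2 (1.94), Fosb (1.82), Egr4 (1.81) and Egr1 (1.61). The 12-month cortex libraries differed in their length slope from the striatal ones, as given above, and its part in this comparison was not tested.

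Most of the 10 genes varied together from mouse to mouse inside the groups, Npas4 in the 12-month cortex being the exception. Only group means were removed, so differences between the sexes inside a group are part of this variation. After each group's mean log2 CPM was subtracted, the 45 pairs of members had a median Pearson r of 0.72 in the 6-month striatum (50 libraries), 0.61 in the 6-month cortex (50), 0.81 in the 12-month striatum (57) and 0.7 in the 12-month cortex (60), against a median of 0.0 over all pairs of genes. The medians of Spearman's rho were 0.67, 0.56, 0.77 and 0.64, and those of r without the 2 libraries farthest from the median 0.63, 0.55, 0.74 and 0.68. By permutation, 43, 43, 44 and 41 of the 45 pairs passed an adjusted p of 0.05 over 180 relations, all of them with a positive r except Egr3 and Npas4 in the 12-month cortex (-0.45). The r of Npas4 with the mean of the other 9 members was 0.14 there, against 0.6, 0.5 and 0.58 in the other sets, and 0.55 or more for every other member of the 12-month cortex. The 95th percentile of r over all gene pairs was 0.55, 0.65, 0.52 and 0.71, so the median pair of members lay above it in striatum and below it in cortex. Egr2 and Nr4a1 were the closest pair in the 6-month striatum (0.94) and the 12-month cortex (0.91), Arc and Nr4a1 in the 6-month cortex (0.89), and Egr1 and Egr2 in the 12-month striatum (0.97). Egr3 and Npas4 were the least alike in all 4 sets (0.27, 0.05, 0.17 and -0.45). Egr2 had the widest residual spread in striatum, an SD of 0.62 log2 units at 6 months and 0.84 at 12 months, and Egr3 the narrowest, 0.24 and 0.27.

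Mice with high levels in the striatum also had high levels in the cortex. Over the 50 mice with both tissues at 6 months, r was 0.87 for Egr2 (rho 0.84), 0.86 for Fos (0.84), 0.82 for Nr4a1 (0.79) and 0.78 for Arc (0.71), and it was lowest for Egr3 (0.4, rho 0.29) and Junb (0.35, rho 0.32). Over 57 mice at 12 months, r was 0.91 for Nr4a1 (0.87), 0.9 for Egr2 (0.88) and 0.82 for Fos (0.78), and lowest for Egr3 (0.42, rho 0.47). All 10 members passed an adjusted permutation p of 0.05 at both ages, over 20 relations, with 1e-05 the smallest p the permutations can give and 0.013 the largest, for Junb at 6 months. Over all genes with at least 1 CPM in both tissues the median r was 0.17 at 6 months (14290 genes) and 0.08 at 12 months (13819), with 95th percentiles of 0.54 and 0.42, above which 7 and 9 members lay. An r as high as that of the lowest member was found for 18.8% of these genes at 6 months and 5.28% at 12 months. Leaving out the 2 mice farthest from the median in striatum gave 0.83 for Egr2, 0.26 for Egr3 and 0.24 for Junb at 6 months. The mean of the 10 members correlated at 0.74 (rho 0.71, 0.67 without 2 mice) at 6 months and 0.88 (rho 0.84, 0.83 without 2 mice) at 12 months. The 2 dissections of a mouse share the animal, its cage and its day of collection, which cannot be told apart here. Differences between the sexes inside a group stay in these values too.

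**Figure D1:**
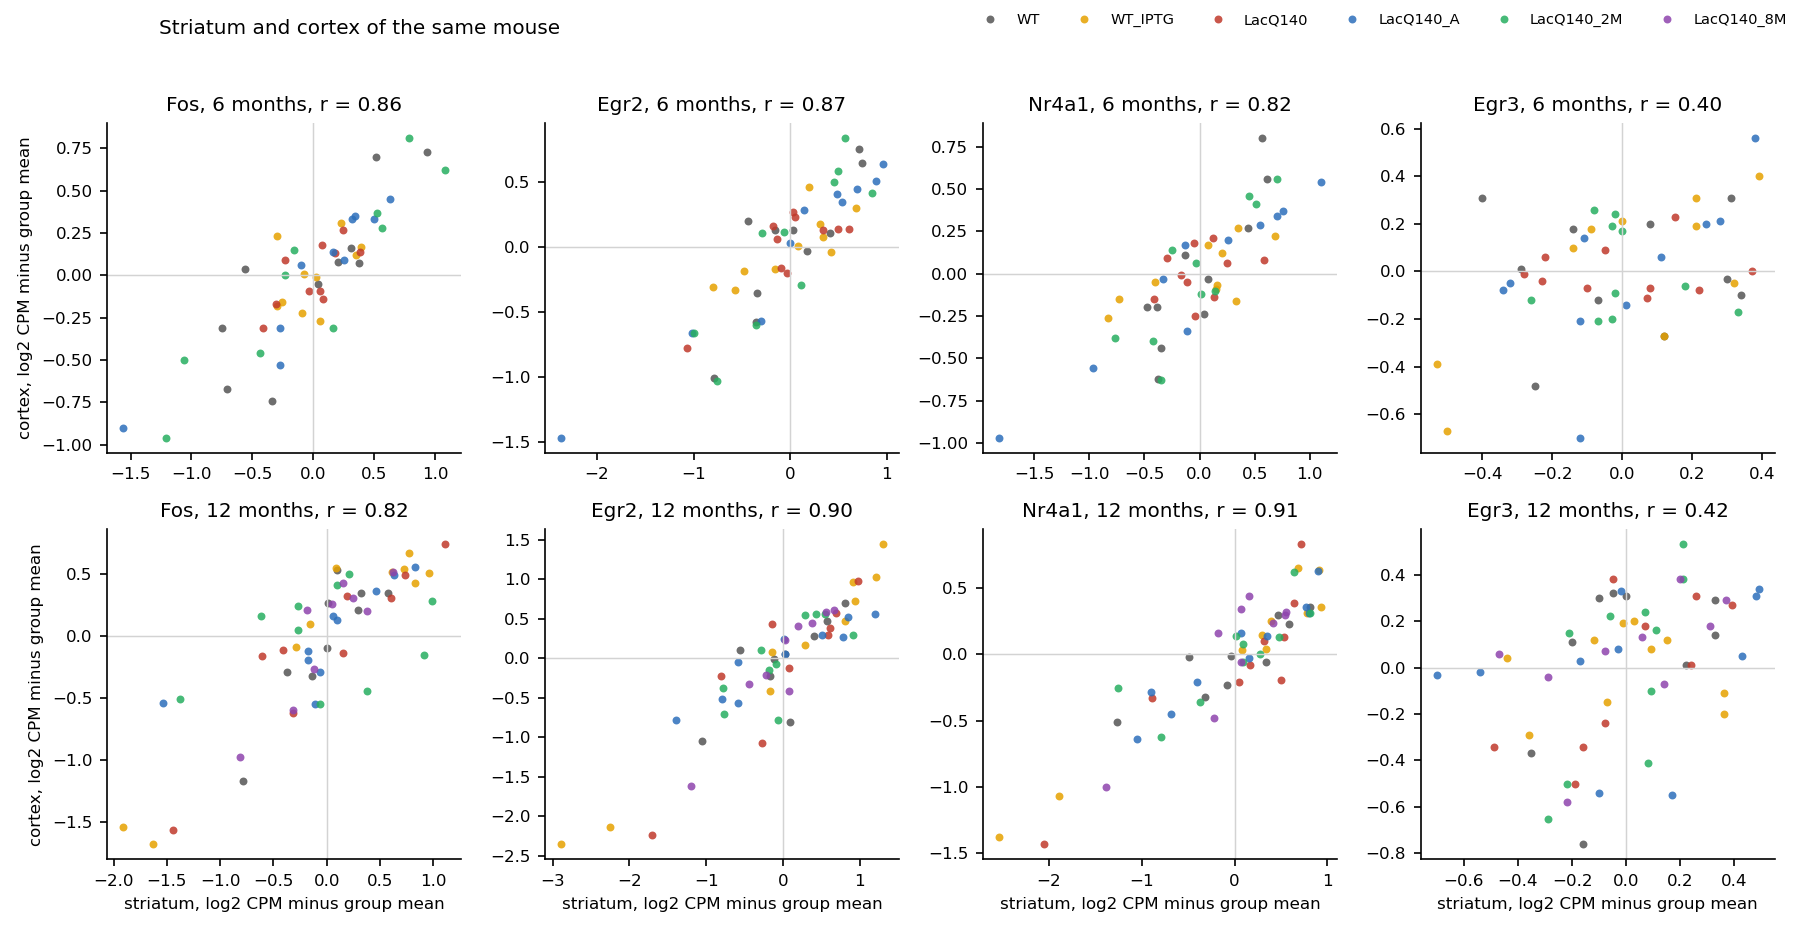
Residual log2 CPM in cortex (y axis) against striatum (x axis) of the same mouse for Fos, Egr2, Nr4a1 and Egr3, each point a mouse after its group's mean was subtracted, at 6 and 12 months. Fos, Egr2 and Nr4a1 lie along a line (r from 0.82 to 0.91), while the points of Egr3 form a wider cloud (0.4 and 0.42).

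Among all genes with a mean of at least 1 CPM, those whose residuals followed the mean of the 10 members most closely were named by a fixed rule, 5 in each set. In the 6-month striatum they were Dusp5 (r = 0.86), Dusp6 (0.83), Arl4d (0.81), Dusp1 (0.8) and Slc25a25 (0.8), and in the 12-month striatum Dusp6 (0.91), Dusp5 (0.88), Phlda1 (0.88), Gpr3 (0.88) and Rnd3 (0.86). The Dusp genes encode phosphatases of MAP kinases. In cortex Trib1, a pseudokinase gene, and Sik1, a salt-inducible kinase gene, came first at both ages, at 0.8 and 0.76 at 6 months and 0.89 and 0.88 at 12 months. These values are over 50 to 60 libraries and describe likeness only.

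IPTG alone went with lower levels of some members at 6 months. In the striatum of WT + IPTG mice at 6 months all 10 had negative log2 fold changes against WT, 7 had an unadjusted p under 0.05, and Fos and Nr4a1 were called, against 0.584% of 35808 genes. Striatal Fos was 14.7 to 47.2 CPM in WT with a median of 27, and 11.6 to 18.8 CPM in WT + IPTG with a median of 14.0. The ranges overlapped, with 3 of 10 WT mice inside the WT + IPTG range. The fitted change was -0.87 ± 0.202 (SE, adjusted p = 0.0188 in edgeR), and that of Nr4a1, at 190 CPM in WT and 106 CPM in WT + IPTG, was -0.84 ± 0.203 (adjusted p = 0.0278).

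In the cortex of the same mice 4 members were called lower, against 0.609% of 35987 genes in either direction and 0.358% lower. Cortical Fos lay at 30.9 to 86.0 CPM in WT (median 53.9) and 24.2 to 36.0 CPM in WT + IPTG (median 29.1), so that 2 WT mice reached into the other range, and changed by -0.89 ± 0.164 (adjusted p = 0.00258). Arc fell by 0.78 on the log2 scale (283 against 487 CPM, SE 0.177, adjusted p = 0.0183), Egr2 by 0.8 (8.16 against 14.2 CPM, SE 0.199, adjusted p = 0.0367) and Nr4a1 by 0.65 (90.1 against 142 CPM, SE 0.145, adjusted p = 0.0161). Egr3 (0.05), Egr4 (0.06) and Fosb (0.02) stood near 0. The counts depended on single mice, and most on 2 WT males. Without WT M2 or without WT M3, which had the highest Fos of that group in striatum and cortex (47.2 and 35.4 CPM, 86.0 and 84.2 CPM), 0 members were called in striatum by edgeR and 1 in cortex. The striatal call of Nr4a1 was also lost without WT M4 or without WT + IPTG F5, M4 or M5, and the cortical call of Egr2 in 10 of 20 such fits. The 6 choroid plexus markers summed to 23.1 to 49.6 CPM in WT striatum and 24.5 to 723 CPM in WT + IPTG striatum, and to 10.4 to 174 and 11.5 to 2077 CPM in cortex, with none at 0 in all libraries of a group. Of the marker lists, 1 oligodendrocyte, 1 endothelial and 1 choroid plexus marker were called higher with IPTG in striatum, and 2 astrocyte, 1 oligodendrocyte and 1 endothelial marker lower in cortex, of 6 each, and their part in the result was not tested.

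Split by sex, which was added after seeing the data, the 6-month changes were called in males only, but their difference between the sexes was not. In males Fos (-0.94, adjusted p = 0.0428) and Nr4a1 (-1.06, adjusted p = 0.0342) passed in striatum, against 1.28% of genes, and Egr2 (-1.17), Fos (-1.05), Arc (-1.02) and Nr4a1 (-0.85) in cortex, against 0.864%. In cortex the male values of Fos, Egr2 and Nr4a1 did not overlap between the groups, as was the case for 1.48% of genes. In females 0 members passed in either tissue, where edgeR called 0.0% of genes in both, and 2 members in striatum and 4 in cortex had an unadjusted p under 0.05. The change in females minus that in males was called for 0 members in striatum (0.0922% of genes) and 0 in cortex (0.025%), with 0 and 1 members at an unadjusted p under 0.05.

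At 12 months the IPTG comparison in striatum ran the other way. All 10 members were higher in WT + IPTG than in WT, 9 of them at an unadjusted p under 0.05, and Egr4 alone was called (61.7 against 34.9 CPM, 0.82 ± 0.198, adjusted p = 0.0494), against 0.218% of 35386 genes. The call of Egr4 was lost in 14 of the 19 fits that left out 1 library. The count of called members rose to 5 without WT + IPTG M4 and to 4 without WT + IPTG M5.

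The higher level at 12 months was carried by the females. Egr2 stood at 53.6, 59.0, 57.9, 75.8 and 71.3 CPM in the 5 WT + IPTG females, against 8.55, 12.0, 15.7 and 18.0 CPM in the 4 WT females. In the 5 WT + IPTG males it was 37.6, 27.7, 27.2, 4.11 and 6.4 CPM, against 16.3, 23.4, 26.3, 31.0 and 18.8 CPM in WT males. The females of the 2 groups did not overlap, and the males with IPTG spread from below to above the WT males. Fos gave the same picture, with 48.5, 46.7, 55.2, 50.3 and 43.3 CPM in WT + IPTG females against 11.4, 15.3, 18.0 and 19.9 CPM in WT females. WT + IPTG males had 30.2, 25.3, 23.1, 7.49 and 9.1 CPM of Fos against 24.6, 29.3, 21.2, 24.2 and 19.8 CPM in WT males. M4 and M5 were the lowest of their group for both genes, and also for Arc (89.0 and 119 CPM, against 283 to 415 CPM in the other 3 males and 550 to 594 CPM in the females).

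In females the fit with a term for each group and sex called 9 members higher with IPTG, against 8.22% of genes in either direction and 4.78% higher, and the values of all 10 did not overlap between the groups, against 13.4% of genes. The changes were 2.22 ± 0.369 for Egr2 (adjusted p = 4e-05), 1.54 ± 0.242 for Egr4 (adjusted p = 1.9e-05), 1.31 ± 0.237 for Egr1 (adjusted p = 0.00014), 1.59 ± 0.344 for Fos (adjusted p = 0.00114) and 1.31 ± 0.303 for Arc (adjusted p = 0.00243). Nr4a1 (1.67), Fosb (0.95), Junb (0.92) and Egr3 (0.57) were also called, and Npas4 was not (0.71, adjusted p = 0.0645). In males 0 members were called and the values lay between -0.43 for Npas4 and 0.07 for Nr4a1, with 0 members at an unadjusted p under 0.05 and 0.00283% of genes called by edgeR. The difference itself, females minus males, was called for 8 members, all higher, against 4.38% of genes and 2.7% higher: Egr2 (2.38 ± 0.491, adjusted p = 0.00319), Fos (1.91 ± 0.465, adjusted p = 0.01), Egr4 (1.54 ± 0.325, adjusted p = 0.00365), Arc (1.51), Egr1 (1.36), Junb (1.15), Npas4 (1.15) and Fosb (0.97). Nr4a1 (1.59, adjusted p = 0.0732) and Egr3 (0.58, adjusted p = 0.0728) missed the threshold. Leaving out 1 WT or WT + IPTG library at a time gave 5 to 9 called members, the fewest without WT + IPTG M4. The calls of Fos, Junb, Egr1, Egr2 and Egr4 were lost in none of these fits, that of Arc without WT + IPTG M4 (adjusted p = 0.068), that of Fosb in 7 and that of Npas4 in 13 of 19.

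**Figure D2:**
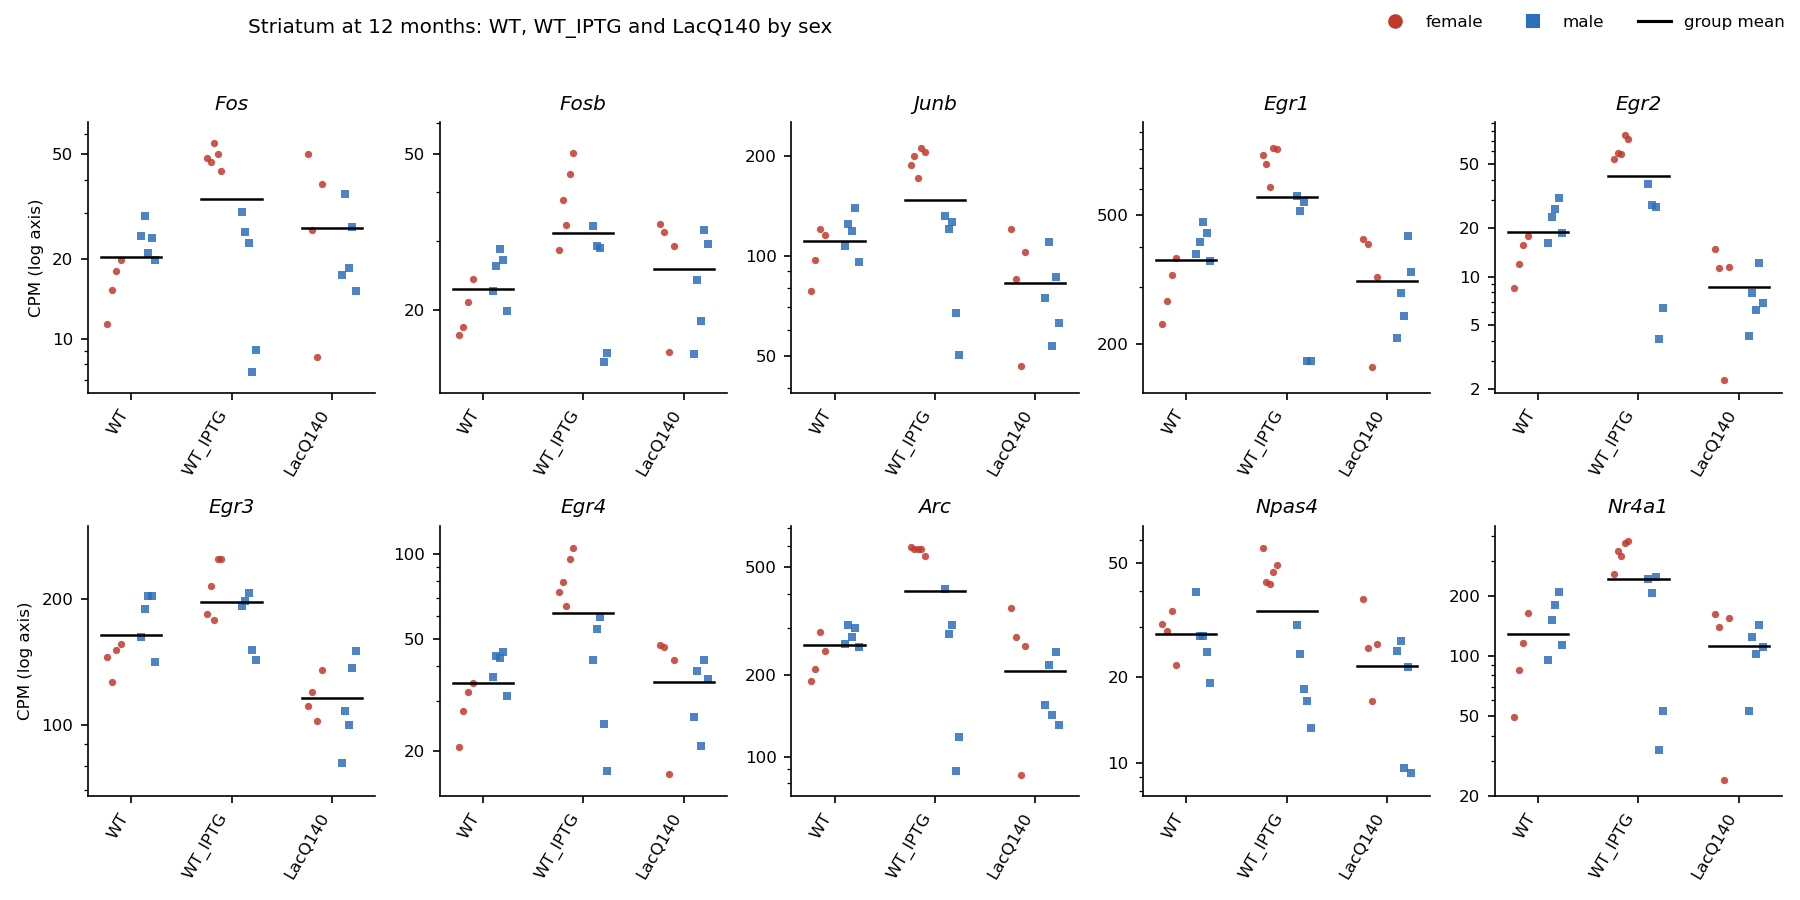
Levels of the 10 genes in the 12-month striatum (CPM, log axis) for WT, WT + IPTG and LacQ140 mice, each point a mouse and each sex in its own column. The 5 WT + IPTG females stand above the 4 WT females for every gene, and WT + IPTG males M4 and M5 are the lowest of the WT + IPTG mice for Egr2 (4.11 and 6.4 CPM) and Fos (7.49 and 9.1 CPM).

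Other tissue in the samples was measured beside this. In the 12-month striatum the 8 spiny neuron markers summed to 5929 to 7718 CPM in WT + IPTG females and 6016 to 7948 CPM in WT + IPTG males. The 5 blood markers summed to 276 to 403 CPM in WT + IPTG females, 279 to 1962 CPM in WT + IPTG males and 146 to 383 CPM in WT mice, and the 6 choroid plexus markers to 23.5 to 428 CPM in WT + IPTG and 29.2 to 87.2 CPM in WT. No marker of these lists was at 0 in all libraries of a group, and their part in the result was not tested. The same 2 males were low in cortex, where Fos was 8.34 CPM in M4 and 7.6 CPM in M5 and Egr2 1.09 and 1.26 CPM, against 4.31 to 6.45 CPM of Egr2 in the other WT + IPTG males and 7.95 to 15.6 CPM in the females.

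In the 12-month cortex IPTG gave positive values for all 10 members, but edgeR and DESeq2 called 0 of them. edgeR called 0 of 34493 genes (0.0%), with 2001 genes and 4 members at an unadjusted p under 0.05, and DESeq2 called 13 genes. Egr2 was highest, at 0.76 ± 0.275 (7.53 against 4.45 CPM, adjusted p = 0.569), and Fos stood at 0.54 ± 0.211. By sex, the female changes were 1.48 for Egr2 (adjusted p = 0.0585) and 1.14 for Fos (adjusted p = 0.0789), with 0.087% of genes called, and 5 members (Egr2, Fos, Nr4a1, Egr1 and Fosb) did not overlap between the female groups, against 1.55% of genes. The difference between the sexes was called for 0 members there (0.0058% of genes), with 8 of 10 at an unadjusted p under 0.05. The difference between tissues in the IPTG effect was called for 0 members at either age, with 2 members at an unadjusted p under 0.05 at 6 months (0.0527% of genes called) and 3 at 12 months (0.0%).

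The order of females and males differed from group to group. Averaged over groups in an additive fit, the sexes differed for 0 members in all 4 sets by edgeR and by DESeq2 (0.279% and 0.192% of genes called in striatum and cortex at 6 months, 0.218% and 0.154% at 12 months), with 3 members at an unadjusted p under 0.05 in the 6-month cortex and 0 in the other sets. Within WT + IPTG, 8 members were higher in females in the 12-month striatum, against 2.2% of genes and 1.13% higher, led by Egr2 (1.62), Fos (1.35), Arc (1.26) and Npas4 (1.21), and Egr2 in the 12-month cortex (1.55, adjusted p = 0.0262), against 0.27%. Within LacQ140_A, 5 members were lower in females in the 12-month striatum, against 6.44% of genes and 3.7% lower: Egr2 (-1.33, adjusted p = 0.0125), Nr4a1 (-1.16), Arc (-0.89), Egr1 (-0.75) and Egr3 (-0.61). Striatal Egr2 was 4.23, 7.42, 6.48, 7.46 and 11.3 CPM in those females and 11.4, 20.1, 25.9, 19.4 and 16.0 CPM in the males. Within LacQ140_2M, Npas4 was lower in females there (-1.12, adjusted p = 0.0475, with 0.0876% of genes called). Within LacQ140 all 10 members had higher values in females at 12 months in striatum and in cortex, with 0 called by edgeR and 0 at an unadjusted p under 0.05 (0.0396% and 0.0203% of genes called). All 10 were likewise higher in females in the 6-month striatum of LacQ140_A and LacQ140_2M, where 3 members each had an unadjusted p under 0.05 and 0 were called (0.0391% and 0.0335%). In LacQ140 at 6 months, 2 of 10 were higher in females in striatum and 0 of 10 in cortex. There 0 were called (13 and 9 of all genes), with 0 and 2 members at an unadjusted p under 0.05. In WT 9 of 10 values were lower in females in the striatum at both ages and 10 of 10 in the 6-month cortex, with 0 called by edgeR (0.441% and 0.0565% in striatum at 6 and 12 months, 0.25% in cortex) and 5, 3 and 6 members at an unadjusted p under 0.05.

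**Figure D3:**
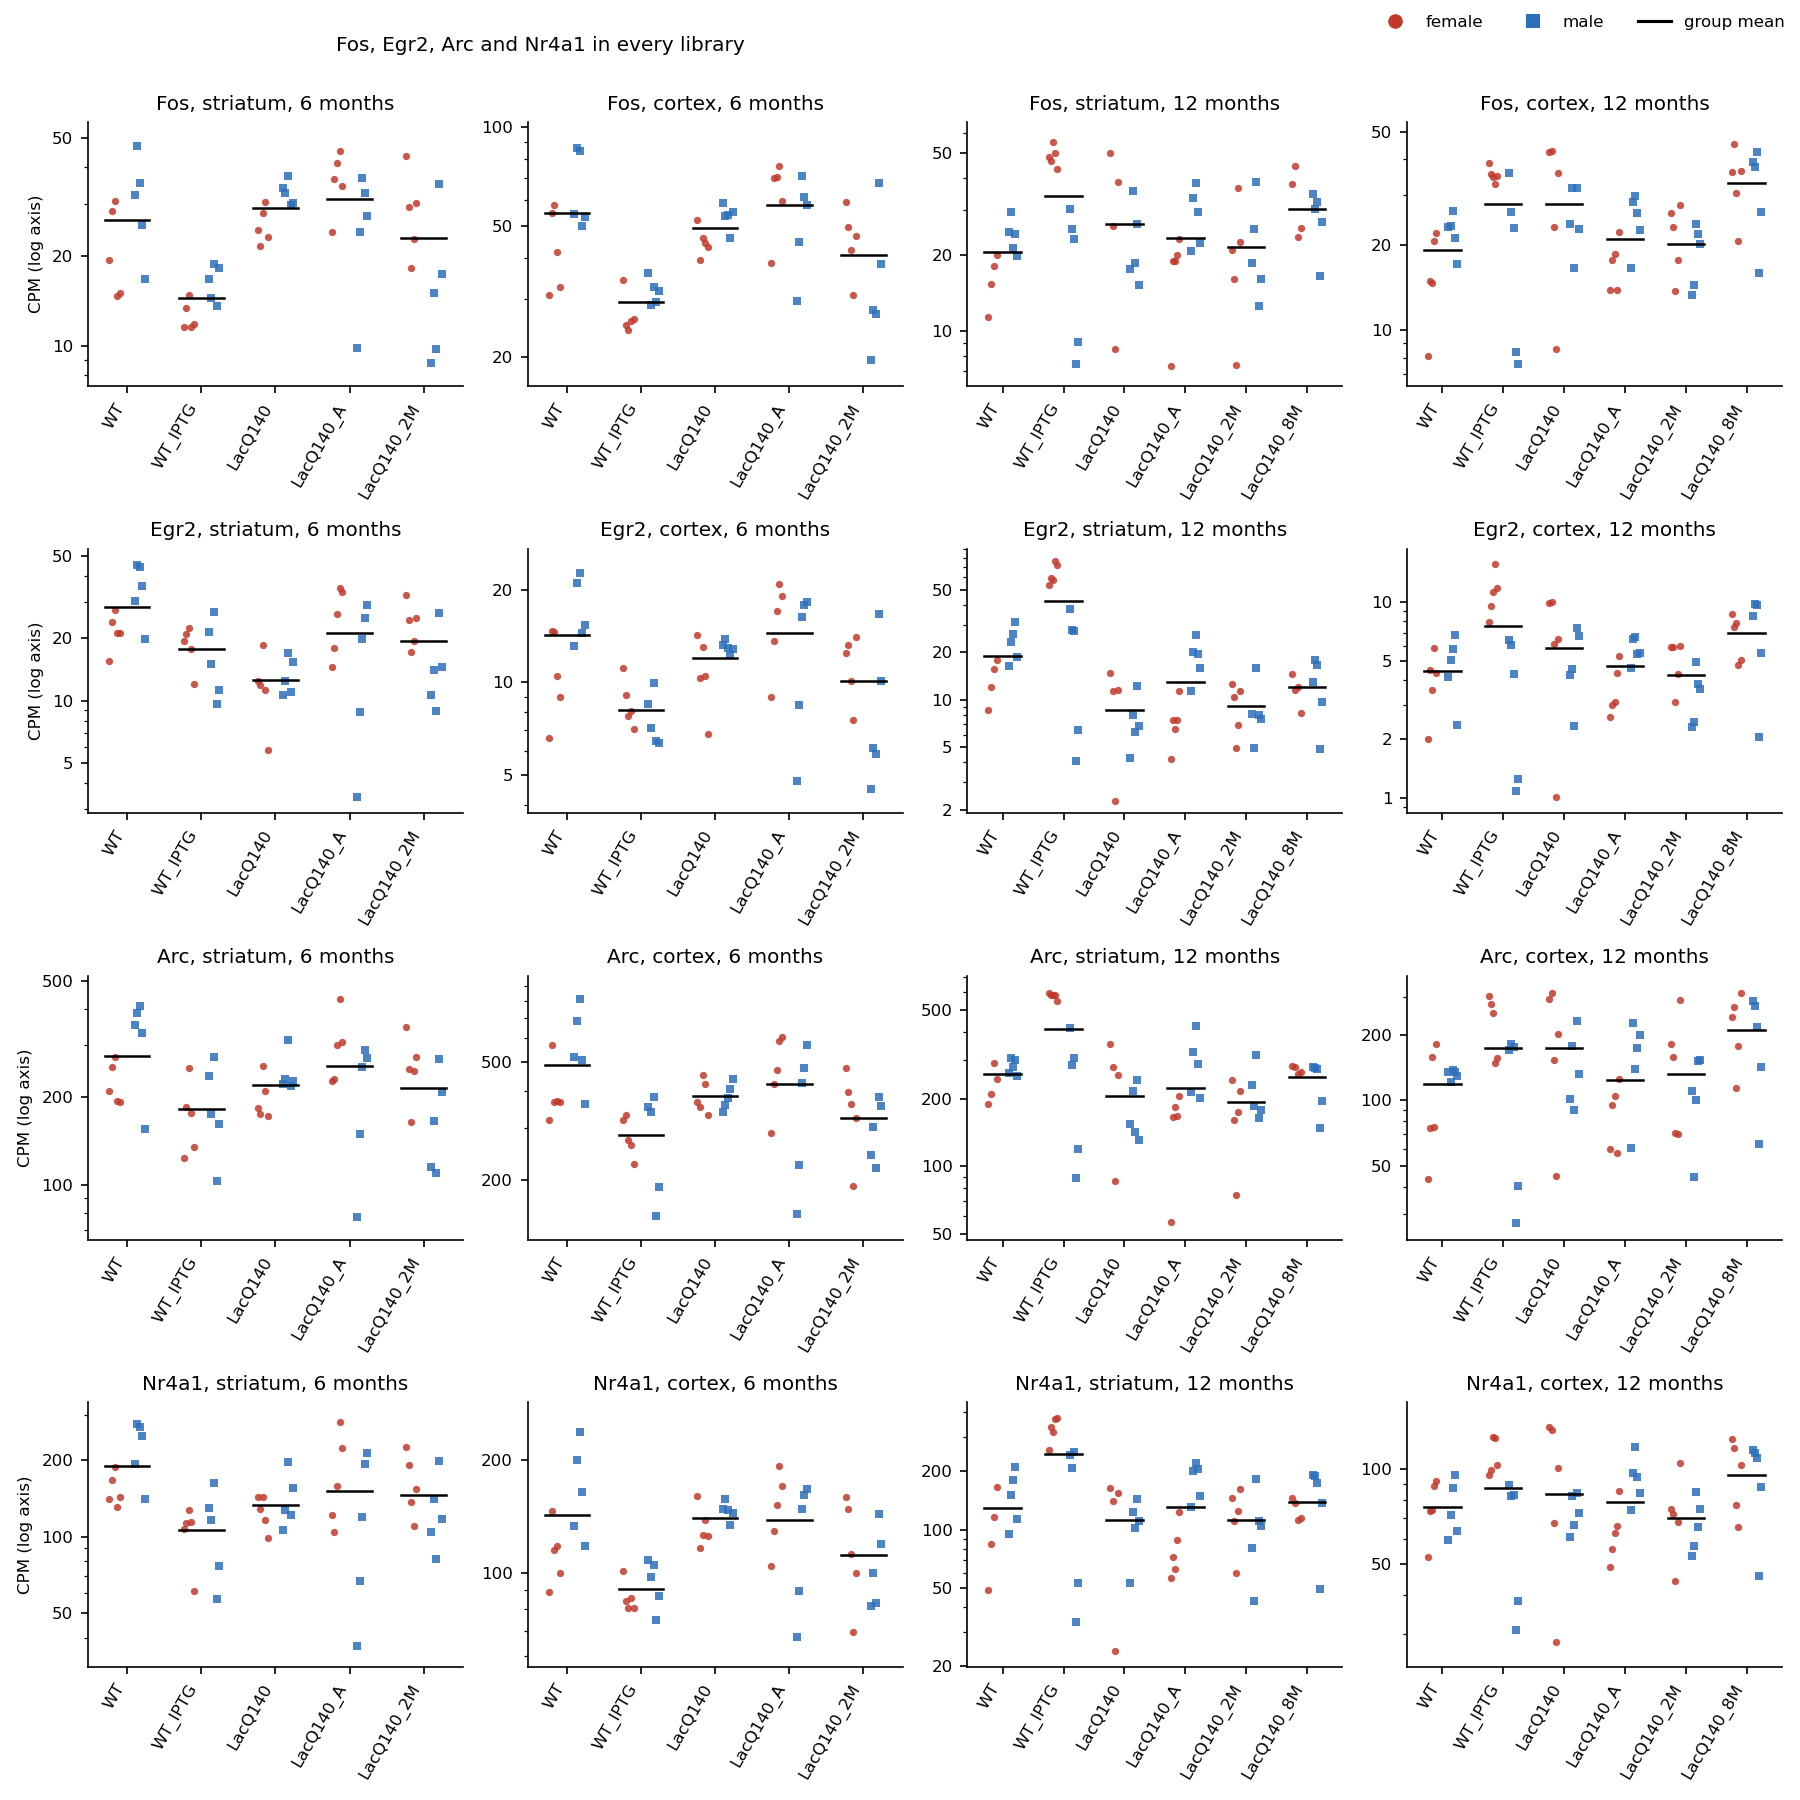
Levels of Fos, Egr2, Arc and Nr4a1 (CPM, log axis) in each group, tissue and age, each point a mouse, with females and males in different symbols and a line at the group mean. Striatal Fos of the WT + IPTG mice lies at 11.6 to 18.8 CPM at 6 months and spreads from 7.49 to 55.2 CPM at 12 months, while striatal Egr2 at 6 months is lower in LacQ140 (mean 12.7 CPM) than in WT + IPTG (17.7 CPM).

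The LacQ140 effect was taken against WT + IPTG, which matched it in treatment. At 6 months in striatum 1 member was called, Fos, against 7.93% of genes. Fos was 24.6, 21.7, 28.0, 30.4 and 23.2 CPM in LacQ140 females and 34.0, 32.7, 37.4, 29.8 and 30.2 CPM in males. WT + IPTG females had 11.6, 13.4, 14.8, 11.6 and 11.9 CPM and males 16.8, 14.5, 18.8, 13.6 and 18.3 CPM. The groups did not overlap, as for 1.15% of genes, and the change was 1.0 ± 0.202 (29.2 against 14.5 CPM, adjusted p = 0.00025), with 1.01 in females (adjusted p = 0.00847, 6.07% of genes called) and 1.0 in males (adjusted p = 0.0134, 3.06%). Other AP-1 genes and the EGR family had smaller values, among them Fosb (0.35, adjusted p = 0.0508), Junb (0.41), Egr3 (-0.28, adjusted p = 0.0554) and Egr2 (-0.48, adjusted p = 0.213).

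In the 6-month cortex 3 members rose against WT + IPTG, against 0.881% of genes and 0.378% higher: Fos (0.74 ± 0.163, 49.2 against 29.4 CPM, adjusted p = 0.00974), Junb (0.73 ± 0.188, 96.5 against 58.1 CPM, adjusted p = 0.0342) and Nr4a1 (0.63 ± 0.145, 140 against 90.1 CPM, adjusted p = 0.016). Nr4a1 was 116 to 160 CPM in LacQ140 (median 141) and 74.8 to 108 CPM in WT + IPTG (median 86.0), and Fos 39.3 to 58.8 CPM (median 48.9) against 24.2 to 36.0 CPM (median 29.1). Neither gene overlapped between the groups, as for 0.117% of genes, and Junb did, with 68.9 to 118 CPM against 45.5 to 74.1 CPM. The call of Junb was lost in 8 of 20 fits that left out 1 library. Of the marker lists, 1 of 6 endothelial markers was called lower (summed 209 to 268 against 258 to 326 CPM in WT + IPTG) and 0 of the others by edgeR, with sums of 3488 to 4826 against 4234 to 5730 CPM for astrocytes and 12.8 to 1771 against 11.5 to 2077 CPM for choroid plexus, and their part in the result was not tested. Junb lies across Prdx2 on the other strand, and whether strand was used in counting is not given in the sources used here. The level of Prdx2 was 308 CPM in the LacQ140 cortex, against 296 CPM in that of the controls.

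These rises at 6 months depended on the control group, an alternative added after seeing the data. Against WT mice without IPTG, striatal Fos in LacQ140 differed by 0.14 ± 0.198 (29.2 against 26.6 CPM, adjusted p = 0.766), and 0 members were called in cortex by edgeR (3.62% of genes called, 1 member at an unadjusted p under 0.05), where Fos was -0.15 and Nr4a1 -0.02. Against the same control Egr2 (-1.17 ± 0.234, 12.7 against 28.4 CPM, adjusted p = 0.00031) and Egr3 (-0.37 ± 0.0991, 102 against 132 CPM, adjusted p = 0.00792) were called lower in striatum, against 5.85% of genes. With WT and WT + IPTG pooled as the control, Fos (0.57, adjusted p = 0.0147), Egr2 (-0.82, adjusted p = 0.00347) and Egr3 (-0.33, adjusted p = 0.00568) were called in striatum, against 7.57% of genes, and 0 members in cortex by edgeR (1.88%, 6 members at an unadjusted p under 0.05).

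**Figure D4:**
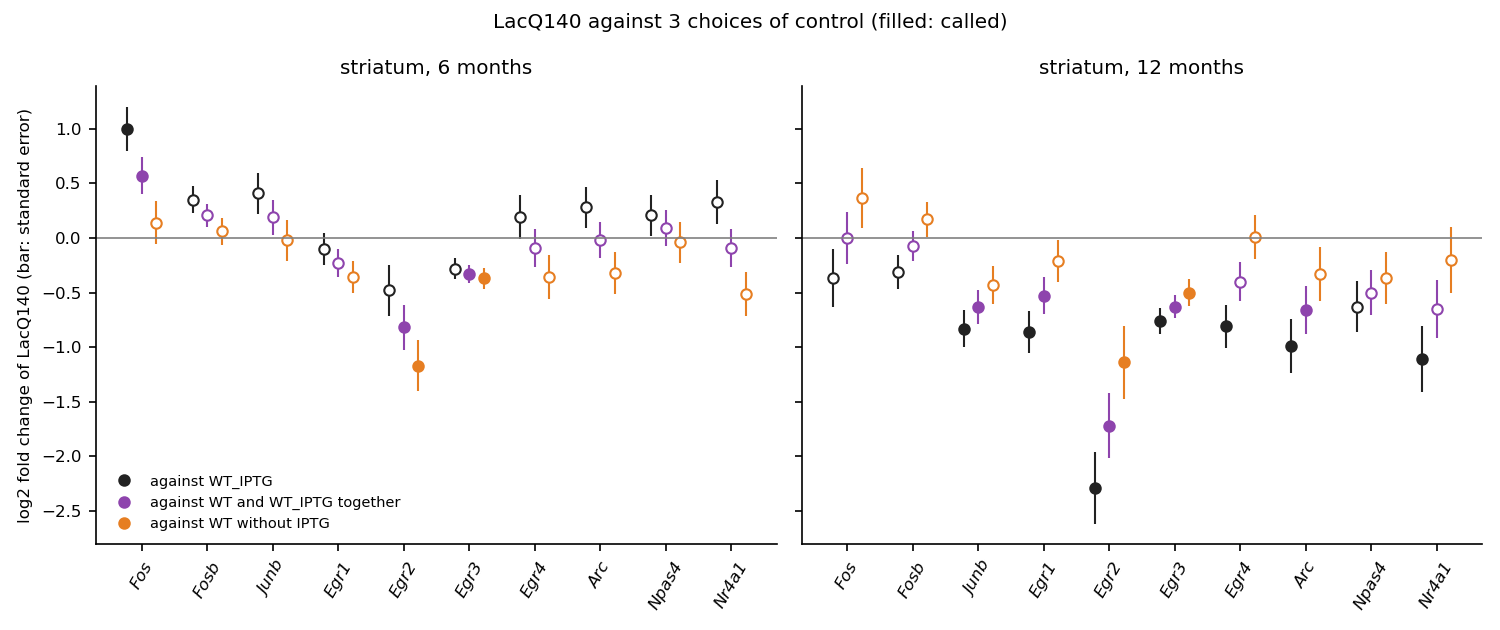
Log2 fold change of LacQ140 for the 10 genes in striatum at 6 and 12 months against 3 controls (WT + IPTG, WT, and both together), with SE bars and filled points for called genes. Fos at 6 months moves from 1.0 against WT + IPTG to 0.14 against WT, while Egr2 lies below 0 against every control at both ages, from -0.48 to -2.29.

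At 12 months in striatum 7 members fell in LacQ140 against WT + IPTG, where 9.44% of 35386 genes were called and 4.86% were called lower. Every EGR gene was called lower against this control, but against WT only Egr2 and Egr3 were, as given below. Egr2 fell by 2.29 on the log2 scale (8.6 against 42.1 CPM, SE 0.328, adjusted p = 1.1e-07), Egr1 by 0.86 (314 against 569 CPM, SE 0.191, adjusted p = 0.00055), Egr4 by 0.81 (35.2 against 61.7 CPM, SE 0.197, adjusted p = 0.00174) and Egr3 by 0.76 (116 against 196 CPM, SE 0.118, adjusted p = 9.3e-07). Junb (-0.83 ± 0.172, 82.6 against 147 CPM, adjusted p = 0.00017), Arc (-0.99 ± 0.247, 207 against 411 CPM, adjusted p = 0.00234) and Nr4a1 (-1.11 ± 0.301, 113 against 244 CPM, adjusted p = 0.00554) fell with them. Npas4 (-0.63, adjusted p = 0.0565), Fos (-0.37, adjusted p = 0.469) and Fosb (-0.31, adjusted p = 0.226) missed the threshold.

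Egr2 was 14.8, 11.3, 2.29 and 11.5 CPM in LacQ140 females and 4.27, 7.95, 6.22, 12.2 and 6.84 CPM in LacQ140 males. Each of these 9 values lay below the WT + IPTG females and below 3 of the 5 WT + IPTG males, the others being M4 and M5. Egr3 was 81.3 to 150 CPM in LacQ140 (median 111) against 143 to 249 CPM in WT + IPTG (median 195), and the ranges overlapped by 1 LacQ140 male (150 CPM) above 1 WT + IPTG male (143 CPM). For 0 of the 10 members did the pooled groups separate, against 2.07% of genes. In females 8 members were called, all but Fos and Fosb, against 7.99% of genes, and the same 8 did not overlap, against 11.0% of genes, while in males Egr2 (-1.47, adjusted p = 0.00287) and Egr3 (-0.63, adjusted p = 0.00055) were called, against 7.67%. The difference between the sexes was called for 0 members in edgeR (0.00565% of genes), with 4 members at an unadjusted p under 0.05.

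Against WT without IPTG, the 12-month fall was called for Egr2 (-1.14 ± 0.332, 8.6 against 18.9 CPM, adjusted p = 0.0131) and Egr3 (-0.5 ± 0.121, 116 against 164 CPM, adjusted p = 0.002), against 7.71% of genes. The other members lay between -0.43 for Junb and 0.37 for Fos, and Egr4 stood at 0.01. With both WT groups as control, Egr2 (-1.72), Arc (-0.66), Junb (-0.63), Egr3 (-0.63) and Egr1 (-0.53) were called, against 8.97%. Egr2 and Egr3 were thus called lower against WT + IPTG and against WT at 12 months. At 6 months they were called lower against WT but not against WT + IPTG (adjusted p = 0.213 and 0.0554 in edgeR). The pooled control averages the terms of the other 2 in the same fit and is no separate test. Markers of spiny neurons and of other cells moved in the same libraries. All 8 spiny neuron markers were called lower in LacQ140 at 12 months, summing to 3535 to 4537 CPM against 5929 to 7948 CPM in WT + IPTG with none at 0, and 7 of 8 at 6 months (3672 to 5021 against 4497 to 6680 CPM). Of the other lists, all 5 blood markers (107 to 455 against 276 to 1962 CPM), 3 of 6 endothelial (173 to 238 against 213 to 273 CPM), 2 of 6 oligodendrocyte (8530 to 13912 against 11151 to 14936 CPM), 2 of 6 choroid plexus, 1 of 6 astrocyte (2327 to 2978 against 2736 to 3648 CPM) and 1 of 6 microglia markers were called lower at 12 months, and 3 of 8 cortical excitatory neuron markers higher. At 6 months 3 of 6 oligodendrocyte (9681 to 12161 against 12571 to 16162 CPM), 3 of 6 microglia (434 to 509 against 508 to 601 CPM), 2 of 6 astrocyte, 2 of 6 choroid plexus and 1 of 6 endothelial markers were called lower, and of the cortical excitatory neuron markers 3 of 8 lower and 1 higher. The part of these markers in the result was not tested.

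In the 12-month cortex 0 members were called for LacQ140 against WT + IPTG by edgeR or DESeq2, with 1 at an unadjusted p under 0.05 and 0.0899% of genes called. The values ran from -0.41 for Npas4 to 0.32 for Egr4, with Fos at 0.01 and Arc at 0.0. Whether the LacQ140 effect differed between the tissues was tested within mice. At 6 months the difference, striatum minus cortex, was called for Egr2 (-1.03 ± 0.135, adjusted p = 8.4e-07), against 1.12% of genes. At 12 months it was called for Egr2 (-1.81), Egr4 (-0.95), Arc (-0.87), Nr4a1 (-0.86), Junb (-0.81) and Egr1 (-0.71), against 2.8%, with the length slope of the 12-month cortex standing apart as given above.

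**Figure D5:**
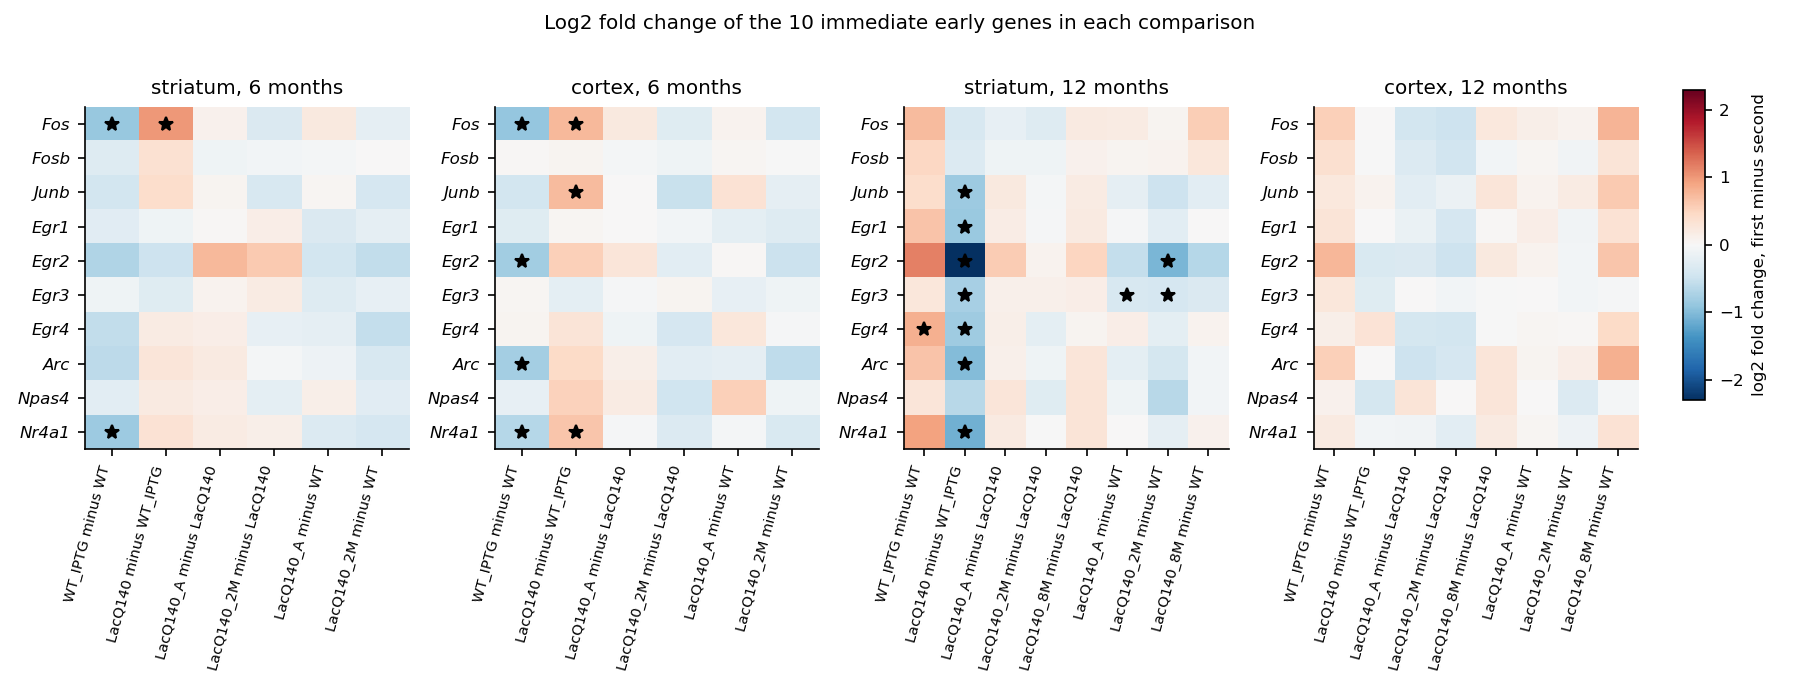
Log2 fold change (colour) of the 10 genes (rows) in each comparison (columns) in both tissues at both ages, with a star for called genes. The LacQ140 column of the 12-month striatum is negative throughout, from -2.29 to -0.31, and the columns of the lowering groups against LacQ140 hold no star.

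Against LacQ140, 0 members were called in the groups from which IPTG was withheld or withdrawn. Htt, the targeted gene, counted over both alleles, checks the labels. It stood at 87.7 CPM ± 8.32 (SD, n = 10) in LacQ140_A and 88.9 CPM ± 8.89 in LacQ140_2M against 102 CPM ± 10.9 in LacQ140 in the 6-month striatum, and at 93.4, 100 and 111 CPM in LacQ140_A, LacQ140_2M and LacQ140_8M against 111 CPM in LacQ140 in the 12-month striatum. The mice labelled LacQ140_8M thus had no lower total Htt mean than LacQ140 in that tissue (SD 8.15 and 10.9, n = 9 each), while in the 12-month cortex it was 18.0 against 23.9 CPM. In cortex the means of LacQ140_A (81.5 and 17.0 CPM at 6 and 12 months) and LacQ140_2M (76.9 and 17.7 CPM) lay below those of LacQ140 (93.7 and 23.9 CPM). In striatum 0 of 10 members were called by edgeR and by DESeq2 in LacQ140_A (1.88% of genes called) and LacQ140_2M (1.26%) at 6 months, with 1 member each at an unadjusted p under 0.05. At 12 months the count was 0 in LacQ140_A (0.91%), LacQ140_2M (0.608%) and the mice labelled LacQ140_8M (0.00565%), whose mean total Htt was that of LacQ140, with 0 members at an unadjusted p under 0.05 in all 3. In cortex it was 0 in LacQ140_A (0.00834%) and LacQ140_2M (0.0%) at 6 months and in LacQ140_A (0.0435%), LacQ140_2M (0.0841%) and LacQ140_8M (0.0%) at 12 months, with 0, 4, 2, 4 and 0 members at an unadjusted p under 0.05. Egr2 in the 6-month striatum was 21.3 CPM ± 10.3 (SD, n = 10) in LacQ140_A and 19.3 CPM ± 7.61 in LacQ140_2M against 12.7 CPM ± 3.6 in LacQ140, differences of 0.75 (adjusted p = 0.0773) and 0.61 (adjusted p = 0.238). LacQ140_A ran from 3.45 to 34.9 CPM, across the LacQ140 range of 5.78 to 18.5 CPM. These comparisons also differ in IPTG, which LacQ140 mice received at collection and the other groups did not, and the treatment cannot be told apart from the lowering.

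Against WT, which like these groups received no IPTG at collection, Egr2 and Egr3 were called in the 12-month striatum. In LacQ140_2M Egr2 was 4.92 to 16.0 CPM (median 8.04) against 8.55 to 31.0 CPM (median 18.0) in WT, a change of -1.06 ± 0.321 (adjusted p = 0.0307), and Egr3 126 against 164 CPM (-0.38, adjusted p = 0.0318), against 4.09% of genes. In LacQ140_A Egr3 was 127 against 164 CPM (-0.37, adjusted p = 0.0471), against 3.15%, and in the mice labelled LacQ140_8M 0 members passed by edgeR and DESeq2 (7.77%, 3 at an unadjusted p under 0.05), with Egr3 at -0.34 (adjusted p = 0.0505). The ranges overlapped in each case. These calls were lost without some single mice: both calls of LacQ140_2M without WT M2, M3 or M4 or without LacQ140_2M F4, M2 or M5, and that of LacQ140_A in 12 of 19 such fits. At 6 months in striatum 0 members passed in LacQ140_A (0.91%) or LacQ140_2M (0.936%), with 2 and 3 at an unadjusted p under 0.05, and in cortex 0 passed in LacQ140_A (0.425%) or LacQ140_2M (0.111%), with 1 and 5. In the 12-month cortex 0 passed in LacQ140_A (0.0174%), LacQ140_2M (0.0899%) or LacQ140_8M (0.0377%), with 0, 0 and 6, and the largest values were those of Arc (0.81, adjusted p = 0.37) and Fos (0.79, adjusted p = 0.143) in LacQ140_8M.

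Genes around the 10 members in the same pathway were taken from lists. For these lists the LacQ140 values are against WT + IPTG only, a control in which some listed genes themselves differed from WT. Values against WT are not given here. Of 40 other fast-induced genes, 16 fell and 1 rose in LacQ140 striatum at 12 months, where 4.86% of all genes fell and 9.44% were called in either direction (median log2 fold change -0.3, against 0.0 over all genes and -0.82 over the 10 members), among them Dusp1 (-0.85), the clock gene Per1 (-0.74), Trib1 (-0.61), Ier5l (-0.59), and Crem, a cyclic AMP responsive modulator (-0.45). At 6 months 7 of the other fast-induced genes rose and 1 fell in striatum, against 7.93% of genes called (median 0.05), with Sik1 (0.59) and the stress factor gene Atf3 (0.93) higher and Sgk1 (-0.63) lower. In the 6-month cortex 4 rose and 0 fell, against 0.881% (median 0.14): Btg2 (0.75), Ier2 (0.73), Dusp1 (0.63) and Csrnp1 (0.37). For IPTG in WT, 4 fell in the 6-month cortex, against 0.609% (median -0.14): Btg2 (-0.74), Dusp1 (-0.72), Klf10 (-0.55) and Sik1 (-0.51). In the 6-month striatum 3 rose and 2 fell, against 0.584%, and in the 12-month striatum Klf4 rose (1.08), against 0.218%. The sex difference in the 12-month IPTG comparison was called higher for 12 of the other fast-induced genes and lower for 0, against 4.38% of genes (median 0.56), with Nr4a3 (2.32), Fosl2 (2.15) and Dusp6 (1.23) among them.

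Of 20 later-induced neuronal genes, whose products include neuropeptides and synaptic proteins, 10 fell and 3 rose in LacQ140 striatum at 12 months (median -0.23, 9.44% of all genes called) and 7 fell and 1 rose at 6 months (median -0.13, 7.93% called). Penk, the enkephalin precursor (-1.3 ± 0.0759 at 12 months, -0.72 ± 0.053 at 6 months), Rgs4 (-0.85, -0.65) and the synaptic scaffold gene Homer1 (-0.93, -0.73) fell at both ages, and Homer1 fell in cortex too (-0.54 at 6 months, -0.43 at 12 months). Under IPTG in WT the G protein gene Rasd1 rose at 6 months in striatum (1.0) and cortex (0.54), where 0.584% and 0.609% of genes were called. How many of the 20 were called there is not given here. Of 25 upstream regulators, 8 fell and 0 rose in LacQ140 striatum at 12 months, where 4.86% of all genes fell (median -0.07), led by Rps6ka4 (-0.71), a kinase of CREB and histone H3, Camkk2 (-0.63), Camk4 (-0.56) and Rps6ka5 (-0.48). Creb1, the CREB gene, was not called for IPTG in WT in any of the 4 sets, from -0.27 in the 6-month cortex to 0.2 in the 12-month cortex. Srf, the SRF gene, rose with IPTG in the 12-month striatum (0.45 ± 0.105, adjusted p = 0.0439), against 0.218% of genes called. Its sex difference was called (0.75 ± 0.162, adjusted p = 0.00395), as were those of Ep300 (0.78) and Crebbp (0.35), which encode coactivators of CREB, against 4.38% of genes. How many of the 25 were called in these comparisons is not given here.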

How the data were processed

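Total RNA of striatum and cortex was sequenced by the authors, who deposited 1 table per age of expected counts, that is, read numbers estimated for each gene without normalization. The build is GRCm38 per the submitters' processing notes, and the aligner, quantifier and strandedness are not given in the sources used here. Of the nonzero values 32.22% were not whole within 1e-06, and counts were rounded. Symbols, positions and transcript lengths came from GENCODE vM21 (54495 of 54532 identifiers matched).

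Each tissue and age was fitted apart with edgeR 4.0.16 in R 4.3.3 (TMM factors, glmQLFit with legacy set to FALSE and glmQLFTest, 1 term per group, genes with at least 1 count), with Benjamini-Hochberg adjustment over all genes. Tissue comparisons took the mice with both tissues, with the mouse as a term of the same edgeR fit. Correlations used log2 CPM with a prior count of 2, minus group means, and 100000 permutations (two-sided). Python 3.11.15, numpy 2.4.6, pandas 2.3.3, scipy 1.17.1 and matplotlib 3.10.9 were used. Statistics were tested on simulated data.

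Alternatives were DESeq2 1.42.0 and its size factors, filterByExpr, sex as a covariate, a replicate block, only the 2 groups compared, the length slope as a covariate, no fold change bound, no mouse block, a prior count of 0.5 or removal of means of group and sex for the correlations, and leaving out each library. Other controls, effects by sex and the libraries left out of the sex difference were added after seeing the data. The members and lists were chosen with earlier results of these data known. Named list genes were those with the smallest adjusted p, and the genes most like the members the 5 with the highest r. No pair of libraries within a group agreed within sampling noise (smallest chi-square per degree of freedom 6.15). The p-values cover the spread between mice.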

Additional observations from a re-analysis of the deposited data

Results flagged for a closer look

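Single mice stood apart from their group by Dixon's criterion in 14 of 220 groups tested, and chance gives about 1 in 20. In the 6-month striatum these were Fos in LacQ140_A M1 (9.85 CPM) and Egr2 in LacQ140 F5 (5.78 CPM), and the same mouse, LacQ140 F5, was lowest in cortex for Egr2 (6.83 CPM) and Egr4 (11 CPM). In the 12-month striatum LacQ140_A F1 was lowest for Fos (7.32 CPM), Arc (56.4 CPM) and Npas4 (11.2 CPM), LacQ140_2M F3 for Arc (74.3 CPM) and LacQ140_8M M4 for Nr4a1 (49.9 CPM). In the 12-month cortex LacQ140_8M M4 was lowest for Fosb (3.65 CPM) and Egr2 (2.06 CPM), WT F1 for Fos (8.07 CPM), LacQ140 M3 for Egr4 (4.6 CPM) and LacQ140 F4 for Nr4a1 (28.5 CPM). Each of the 14 was the lowest mouse of its group and none the highest.

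The IPTG effect in the 12-month striatum of WT mice differed between females and males, by the test of the difference itself, for Egr2 (2.38), Fos (1.91), Egr4 (1.54), Arc (1.51), Egr1 (1.36), Junb (1.15), Npas4 (1.15) and Fosb (0.97). The LacQ140 effect differed between striatum and cortex for Egr2 at 6 months (-1.03) and, at 12 months, for Egr2 (-1.81), Egr4 (-0.95), Arc (-0.87), Nr4a1 (-0.86), Junb (-0.81) and Egr1 (-0.71).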

How the results depend on the processing

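Replicate numbers did not mark shared litters or days in the labels, and the residuals of same-numbered mice correlated by 0.077 to 0.1 on average, against 0.056 to 0.141 for other numbers. With the replicate block the count of called members was 2 (from 4) for IPTG in the 6-month cortex, 0 (from 2) for IPTG in the 6-month striatum, 0 (from 1) for IPTG in the 12-month striatum, and 0 for LacQ140_2M (from 2) and LacQ140_A (from 1) against WT in the 12-month striatum. It moved no other count by over 1.5 times. Where they were run, DESeq2 changed no count of called members and dropping the fold change bound no call. Neither was run for the other controls or for tests by sex other than the additive fit. DESeq2 was also not run for the tissue comparisons.

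For LacQ140 against WT + IPTG in the 6-month striatum the count was 1, and 3 with filterByExpr, 3 with the length slope, 5 with only the 2 groups, 3 with both WT groups as control and 2 with WT. In the 6-month cortex it was 3, and 5 with only the 2 groups, 0 with either other control and 0 in females or in males alone. Against WT in place of WT + IPTG, Fos (-0.15) and Nr4a1 (-0.02) in the 6-month cortex and Egr4 (0.01) in the 12-month striatum lost their call and changed direction. Members not called in the first place took the other sign too: Arc, Egr4, Junb, Npas4 and Nr4a1 in the 6-month striatum, Arc, Egr1 and Egr2 in the 6-month cortex, Fos (0.37) and Fosb (0.17) in the 12-month striatum, and Egr2, Fosb and Nr4a1 in the 12-month cortex. In the 12-month striatum the count was 7, and 2 with WT as control and 2 in males. In the 12-month cortex it was 0, and 1 with the length slope. For IPTG in WT it was 0 in females at 6 months in both tissues. In the 12-month striatum it was 0 with the length slope, with only the 2 groups, with sex as a covariate and in males, where Egr4 stood at -0.01, and 9 in females. For LacQ140_8M against WT in the 12-month striatum the count was 0, and 1 with DESeq2 size factors, 1 with filterByExpr, 1 with sex as a covariate, 2 with the length slope and 3 with only the 2 groups. It was 1 with the length slope in the 12-month cortex. With only the 2 groups it was 0 for LacQ140_A against WT in the 12-month striatum and 2 (from 0) for LacQ140_A against LacQ140 in the 12-month cortex. Without the mouse block the tissue difference in the LacQ140 effect was called for 2 members (from 6) at 12 months and 0 (from 1) at 6 months, and that between tissues of WT mice at 6 months for 5 (from 8). The cause of these changes was not tested.

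Leaving out 1 library at a time, the counts ranged from 1 to 3 for LacQ140 in the 6-month striatum, 2 to 3 in the 6-month cortex and 7 to 8 in the 12-month striatum. For IPTG they ranged from 0 to 2 in the 6-month striatum, 1 to 4 in the 6-month cortex and 0 to 5 in the 12-month striatum, and from 5 to 9 for its difference between the sexes. Against WT in the 12-month striatum they were 0 to 4 for LacQ140_2M, 0 to 1 for LacQ140_A and 0 to 1 for LacQ140_8M, and 0 to 1 for LacQ140_A against LacQ140 in the 6-month striatum. In the other comparisons between groups within a tissue and age they stayed at 0. Comparisons between tissues, against other controls and within a sex or group were not refitted in this way.

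Depth was 33292014 counts or more in every library. The spread between mice of a group, a residual SD of up to 0.84 log2 units for Egr2 in the 12-month striatum, limits these tests, as does the sharing of the WT + IPTG mice by the IPTG and LacQ140 comparisons.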

Other observations

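Markers of the pituitary, which is no part of either dissection, were raised in some 6-month LacQ140_A libraries, with sums of 4 genes from 1.52 to 116 CPM in striatum and 1.31 to 114 CPM in cortex, against at most 5.62 CPM in the other 6-month groups. Immediate early genes in that group ran from 9.85 to 45.1 CPM for Fos and from 77.7 to 434 CPM for Arc in striatum, and a relation between the 2 was not tested.

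In the 12-month LacQ140 striatum F4 was the lowest mouse for Egr2, Nr4a1 and Arc, though not for Egr3, Fosb or Npas4, and its levels in cortex are given beside them, with Egr2 at 2.29 CPM in striatum and 1.01 CPM in cortex, Nr4a1 at 23.9 and 28.5 CPM, and Arc at 86.2 and 44.8 CPM.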
